A study of Mus musculus with 4 samples.

Results

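The MHC class II genes described here are H2-Aa, H2-Ab1, H2-Eb1, Cd74, H2-DMa, H2-DMb1 and Ciita, 7 of the 31053 genes listed in 4 single-cell RNA libraries of mouse salivary gland stroma. Members were taken by their gene symbol, and all 7 were detected in each library. The libraries came from submandibular glands of female C57BL6/J mice. For 2 of them (deligated 1 and 2) a metal clip had closed the main gland ducts for 14 days and had been removed 5 days before harvest, at 14 weeks of age. The other 2 (homeostatic 1 and 2) came from mice aged 12 weeks without surgery, so age and surgery cannot be told apart. Cells bound by beads against EpCAM (epithelium) or Ter119 (red cells) and dead cells had been depleted from both groups. The protocol speaks of 2 glands harvested and names sublingual glands as well; how many mice stand behind a library is not stated, so p-values measure only the spread between these libraries, which may be technical.

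Class II molecules show peptides from proteins that a cell has taken up to CD4+ T cells. H2-Aa and H2-Ab1 encode the α and β chains of I-A, and H2-Eb1 the β chain of I-E, whose α chain gene is defective in C57BL/6 mice. Cd74 encodes the invariant chain, which fills the peptide groove until the lysosomal exchange factor made of H2-DMa and H2-DMb1 loads a peptide. Ciita encodes the transactivator that switches the other members on together; it is active in dendritic cells, B cells and macrophages, and interferon-γ can induce it in endothelium and other non-immune cells. It acts through factors of the RFX and NF-Y families, bound at short promoter elements called the X and Y boxes.

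Promoter sequences are shown because Ciita acts through them. On GRCm38 H2-Aa lies at chr17:34282744-34287823 on the minus strand. H2-Ab1 (chr17:34257689-34269419), H2-Eb1 (chr17:34305867-34316674), H2-DMa (chr17:34119541-34139101) and H2-DMb1 (chr17:34153072-34160230) lie nearby on the plus strand. Ciita lies at chr16:10480059-10528418 on the plus strand. RefSeq promoter records (GRCm38.p6) were found for 4 of the 7 members. For H2-Aa (chr17:34287824-34287973, minus strand) and H2-Eb1 (chr17:34305717-34305866, plus strand) the 150 bases before the start site are shown 5′ to 3′, with letters of an X box (AACNNATG, its conserved end) or a Y box (GATTGG), on either strand, in capitals:
H2-Aa: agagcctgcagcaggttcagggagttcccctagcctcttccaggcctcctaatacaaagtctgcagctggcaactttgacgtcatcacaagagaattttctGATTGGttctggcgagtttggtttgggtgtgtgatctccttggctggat
H2-Eb1: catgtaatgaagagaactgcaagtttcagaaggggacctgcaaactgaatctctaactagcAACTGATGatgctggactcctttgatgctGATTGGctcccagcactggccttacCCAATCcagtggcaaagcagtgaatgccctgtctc
In H2-Eb1 the X-box letters lay at -89 to -82 and the Y-box letters at -60 to -55 from the start, with another copy on the opposite strand at -35 to -30. H2-Aa held the Y-box letters at -49 to -44. The H2-DMb1 window held both, the X-box letters starting at -92 and the Y-box letters at -62, and overlaps an annotated transcript, as do the 2 windows recorded for H2-DMa, which held neither. Of 32851 promoter windows of 150 bases, 1455 (4.43%) held AACNNATG, 3595 (10.9%) held GATTGG and 140 (0.426%) held both. The motifs were chosen with these promoters in view, and a match is a description of letters, not of a bound site.

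The libraries held 4725 and 8713 cell barcodes (deligated) and 12854 and 13266 (homeostatic), with 35662241 to 53898793 unique molecular identifiers (UMIs, each standing for 1 captured RNA molecule) in all. The median UMIs per barcode ranged from 2765.5 to 6075. After cell filters and doublet removal, 4357 and 7823 (deligated) and 10615 and 10900 (homeostatic) cells were left. Pairs of libraries shared 14 to 54 barcodes. Cells were clustered without the 7 genes and classes were named from markers, so they carry the ending "-like". The defining markers were high where they should be: C1qa at 6065 to 6328 CPM (counts per 1000000 UMIs) in macrophage-like cells, Ms4a1 at 562 to 1127 CPM in B cell-like cells, and Pecam1 at 1534 to 1697 CPM in endothelial-like cells. Mural-like cells (pericytes and smooth muscle), which are not known for class II, served as the reference for free RNA. In them C1qa was at 0 to 21.5 CPM and Ms4a1 at 0 to 1.66 CPM. Between the groups most endothelial-like and fibroblast-like cells fell into different clusters. Macrophage-like cells fell into the same pair of clusters in both. The matrices of the 2 groups came from different Cell Ranger versions, which cannot be told apart from the groups.

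Macrophage-like cells had the highest mean level of 6 of the 7 members. Counts were summed over the 35 and 96 such cells of the deligated libraries and the 901 and 900 of the homeostatic libraries. H2-Aa, the I-A α chain, measured 8462 and 10034 CPM in deligated 1 and 2 and 8716 and 8624 CPM in homeostatic 1 and 2. H2-Ab1, its β chain, measured 10902 and 10939 against 9455 and 9402 CPM. H2-Eb1, the I-E β chain, measured 11430 and 12139 against 10820 and 10770 CPM. For all 3 chains the 4 libraries lay close together, and for H2-Ab1 and H2-Eb1 both deligated libraries lay above both homeostatic ones. Cd74 measured 34894 and 31069 CPM in the deligated libraries and 26092 and 26030 CPM in the homeostatic libraries, without overlap. H2-DMa was at 565 to 731 CPM and H2-DMb1 at 520 to 566 CPM, with overlapping groups. Ciita was lower in the deligated libraries, at 107 and 78.6 CPM against 124 and 120 CPM.

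Of the 7 members in macrophage-like cells, 1 was called changed with edgeR's quasi-likelihood test at an adjusted p under 0.05, against 1207 of all 9257 genes tested, which is 13% (3.89% higher and 9.15% lower in deligated). That gene was Cd74, higher in deligated by 0.38 ± 0.09 (SE) on the log2 scale (edgeR adjusted p = 0.016). The call did not hold with DESeq2, which called 0 of the 7 and 527 of 9257 genes. It did not hold with the trend in intron length removed, where 559 of 9257 genes were called. Without deligated 1 the log2 change of Ciita was -0.64. H2-Ab1 (0.25 ± 0.10 on the log2 scale, edgeR adjusted p = 0.11) and Ciita (-0.45 ± 0.21, edgeR adjusted p = 0.18) missed the threshold. The median log2 change was 0.13 over the members and -0.01 over all genes tested. The class held 35 cells in deligated 1, which limits the precision there.

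**Figure D1:**
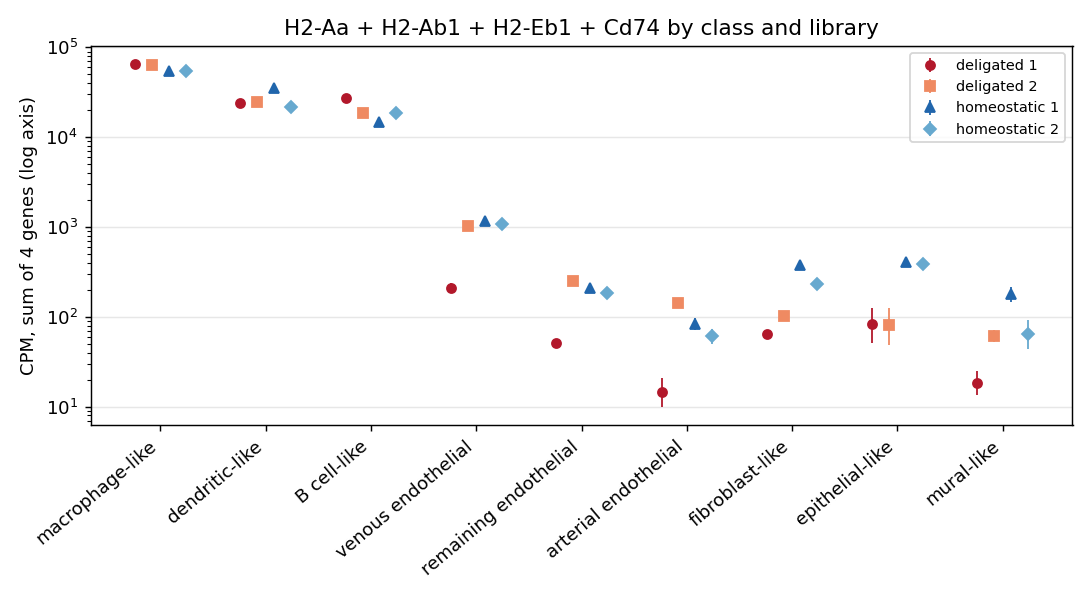
Summed CPM of H2-Aa, H2-Ab1, H2-Eb1 and Cd74 (log axis) in each cell class, with 1 point per library; bars are 95% exact Poisson intervals, which cover counting error only. Macrophage-like cells sit between 54825 and 65688 CPM, and venous endothelial cells between 211 and 1161 CPM.

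Dendritic-like cells carried the 4 abundant members, H2-Aa, H2-Ab1, H2-Eb1 and Cd74, below the macrophage-like level in all 4 libraries. The class was small, with 17, 12, 13 and 19 cells. H2-Aa measured 4232 and 4718 CPM in the deligated libraries and 6818 and 3944 CPM in the homeostatic libraries. Cd74 measured 11303 and 11623 against 15046 and 9160 CPM. For both genes homeostatic 1 was highest and homeostatic 2 lowest. Ciita, at 122 and 101 against 164 and 114 CPM, was near its level in macrophage-like cells. None of the 7 members passed edgeR's test, where 3.93% of 1961 genes did. At an unadjusted p under 0.05 the count was also 0, and DESeq2 called 0.

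B cell-like cells carried each of the 4 abundant members at less than the macrophage-like level but had the highest mean of Ciita, with a range that overlapped those of dendritic-like and macrophage-like cells. They numbered 58 and 15 in the deligated libraries and 19 in each homeostatic library. H2-Ab1 measured 3705 and 3206 CPM in the deligated libraries and 2105 and 2325 CPM in the homeostatic libraries, without overlap. Cd74 measured 15242 and 9779 against 7693 and 10477 CPM, with overlap. Ciita stood at 280 CPM in deligated 1 and at 81.0, 88.2 and 90.6 CPM in the other 3 libraries. H2-DMa, at 477 and 502 against 243 and 362 CPM, was higher in both deligated libraries. Of the 6 members tested, 0 were called by edgeR (13.1% of 1179 genes were) and 0 by DESeq2; at an unadjusted p under 0.05 H2-Ab1 alone passed (0.60 ± 0.20 on the log2 scale, edgeR adjusted p = 0.092). Whether a member was called depended on the library left out, and the calls over all genes varied with it as well. Ciita fell below the count filter and was not tested.

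The share of a library's class II RNA that a class held depends on its number of cells as well as on its level. Macrophage-like cells were 0.803% and 1.23% of the cells in the deligated libraries and 8.49% and 8.26% in the homeostatic libraries. They held 49.9% and 62.0% of Cd74 UMIs in the former and 63.9% and 62.3% in the latter. For Ciita the picture differed. Endothelial-like cells held 27.1% and 64.1% of its UMIs in the deligated libraries and 6.73% and 10.7% in the homeostatic libraries, whereas they held at most 5.59% of Cd74 UMIs in any library. The different numbers of macrophage-like cells bear on these shares, and the part of the depletion beads was not tested.

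In endothelium class II RNA was highest in the venous cells. These were named from Ackr1, Vwf, Selp and other markers, numbered 155 and 128 in the deligated libraries and 66 in each homeostatic library, and were compared with 2 other sets. Arterial cells, with Gja5 and Sema3g, numbered 227, 325, 503 and 421. The remaining endothelial cells numbered 1509, 2649, 2995 and 2983. They carried capillary genes (Rgcc at 2046 to 2176 CPM, Car4 at 321 to 516 CPM) without passing the marker rule for a capillary name. Of the capillary markers, all but Cd36 and Aqp7 had a higher mean in these cells than in arterial cells. Cd36 averaged 293 against 860 CPM in arterial cells, and Aqp7 10.3 against 40.1 CPM. Summed over H2-Aa, H2-Ab1, H2-Eb1 and Cd74, venous cells measured 211, 1015, 1161 and 1082 CPM in deligated 1, deligated 2, homeostatic 1 and homeostatic 2. The remaining cells measured 51.0, 250.0, 208 and 187 CPM, and arterial cells 14.5, 143, 82.6 and 61.2 CPM. The order venous, remaining, arterial held within each of the 4 libraries. Deligated 1 was the lowest library in all 3 sets.

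Each member was higher in venous cells than in the remaining cells of the same library. Venous H2-Aa measured 35.4 and 195 CPM in the deligated libraries and 159 and 137 CPM in the homeostatic libraries, against 9.68 and 54.0 and 36.8 and 30.9 CPM in the remaining cells. H2-Ab1 measured 60.2 and 298 against 126 and 196 CPM in venous cells, and 20.7 and 96.6 against 53.8 and 49.3 CPM in the remaining cells. For both I-A chains deligated 2 was the highest and deligated 1 the lowest library, so the homeostatic values lay between the deligated ones. Cd74 differed: venous cells had 78.9 and 388 CPM in the deligated libraries and 724 and 497 CPM in the homeostatic libraries, and the remaining cells 13.5 and 62.3 against 79.6 and 74.4 CPM, both without overlap. H2-DMa in venous cells measured 18.7 and 87.5 against 52.9 and 22.9 CPM. Ciita measured 7.36 and 33.0 against 13.2 and 39.2 CPM in venous cells and 3.20 and 14.2 against 3.35 and 5.20 CPM in the remaining cells. In deligated 2 the 95% exact Poisson interval of remaining-cell Ciita was 12.3 to 16.3 CPM, and those of the other 3 libraries ended at 6.66 CPM or lower.

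**Figure D2:**
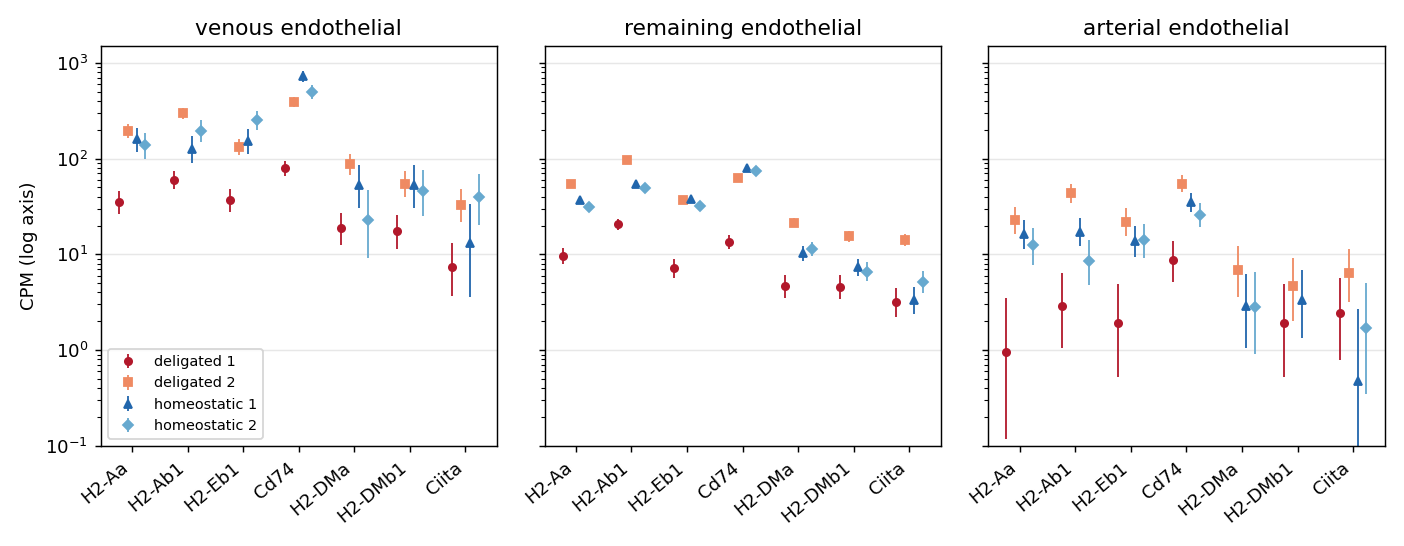
CPM of each member (log axis) in venous, remaining and arterial endothelial cells, with 1 point per library and 95% exact Poisson intervals; counts of 0 are not drawn. Deligated 2 sits above deligated 1 for each member, for example at 298 against 60.2 CPM for H2-Ab1 in venous cells.

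No member passed edgeR's test between the groups in any endothelial set. In all endothelial-like cells 0 of 7 were called, where 35.0% of 13177 genes were (12.8% higher and 22.1% lower in deligated), and 0 had an unadjusted p under 0.05. In venous cells 0 of 7 were called (12.0% of 7081 genes were), but H2-Eb1 (-1.40 ± 0.46 on the log2 scale, edgeR adjusted p = 0.079) and Cd74 (-1.49 ± 0.50, edgeR adjusted p = 0.083) had an unadjusted p under 0.05. Both were called lower without homeostatic 1, without homeostatic 2, with thinned sums and with doublets kept, beside 723 of 8728, 672 of 8707, 794 of 5130 and 727 of 5856 genes. Without deligated 1 or deligated 2 edgeR called 0 of 6015 and 0 of 5890 genes in venous cells. In the remaining cells the count was 0 of 7 (34.1% of 12756 genes), with 0 at an unadjusted p under 0.05. Among arterial cells it was 0 of the 4 tested (16.9% of 9848 genes), also with 0 at an unadjusted p under 0.05. DESeq2 called 0 in each of these sets. The log2 changes in all endothelial-like cells ran from -0.74 ± 0.51 (Cd74) to 1.05 ± 0.61 (Ciita).

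For H2-Aa, H2-Ab1 and H2-DMa the direction of the call depended on which deligated library was left out. With deligated 1 left out, edgeR called 5 members higher in all endothelial-like cells, H2-Aa (0.76), H2-Ab1 (1.02), H2-DMa (1.13), H2-DMb1 (1.15) and Ciita (1.70 on the log2 scale). With deligated 2 left out it called 5 lower, H2-Aa (-1.53), H2-Ab1 (-1.06), H2-Eb1 (-1.84), Cd74 (-1.99) and H2-DMa (-0.85). Calls over all genes rose as well, from 4606 of 13177 genes with all 4 libraries to 7814 of 13822 without deligated 1 and 7605 of 13653 without deligated 2. In the remaining cells 6 members were called without deligated 1, beside 7103 of 13425 genes, and 6 without deligated 2, beside 6684 of 13175. In arterial cells 2 and 4 were called, beside 2356 of 10213 and 2691 of 10343 genes. In each case the lone deligated library is assumed to vary like the homeostatic pair.

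In each library a larger share of venous cells than of remaining, arterial, fibroblast-like, epithelial-like or mural-like cells held class II RNA. With each cell thinned to 1000 UMIs, 17.5% (95% exact binomial interval 11.9 to 24.5), 49.6% (40.6 to 58.6), 50.0% (37.4 to 62.6) and 49.2% (36.4 to 62.1) of venous cells had at least 1 UMI of the 4 abundant genes. Unthinned, the shares were 47.1%, 76.6%, 75.8% and 77.3%, at median depths of 8094, 5130.5, 4344.5 and 4623 UMIs. In the remaining cells the thinned shares were 4.06%, 15.2%, 13.6% and 12.6%, and the unthinned shares 17.4%, 39.4%, 32.9% and 29.9%. In mural-like cells they were 1.56%, 6.11%, 6.90% and 1.37% thinned and 11.1%, 21.6%, 24.2% and 15.9% unthinned, at median depths of 6577, 4972, 4235 and 5977 UMIs. Venous intervals lay above those of mural-like cells in each library. Arterial cells, with 1.33%, 5.28%, 7.76% and 6.27% after thinning, overlapped the mural-like intervals in each library.

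Free RNA from macrophages would carry C1q genes together with class II, in the ratio found in macrophages. Macrophage-like cells had 4.35, 3.99, 3.50 and 3.47 UMIs of the 4 abundant members per UMI of C1qa, C1qb and C1qc. Relative to that ratio, venous cells had 36.3, 18.2, 50.2 and 7.35 times as many class II UMIs per C1q UMI. The values for deligated 1 and homeostatic 1 rest on 2 C1q UMIs each. The remaining cells stood at 7.56, 5.14, 2.31 and 2.78, with every 95% interval above 1. An excess over C1q was not particular to endothelium: NK/innate lymphoid-like cells stood at 6.64, 1.34, 1.13 and 1.54, also with every interval above 1, and T cell-like cells at 2.39, 1.39, 1.17 and 2.40. Arterial cells stood at 3.45, 3.27, 1.07 and 1.48, and of these only the interval of deligated 2 lay above 1. Fibroblast-like cells stood at 1.82, 1.15, 1.40 and 0.979, with the intervals of deligated 1 and homeostatic 1 above 1, epithelial-like cells at 2.53, 0.529, 0.925 and 0.988, and mural-like cells at 1.25, 1.28 and 0.456, with no C1q UMI in deligated 1. Dendritic-like and B cell-like cells carry class II with little or no C1q, and their part in free RNA was not tested.

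**Figure D3:**
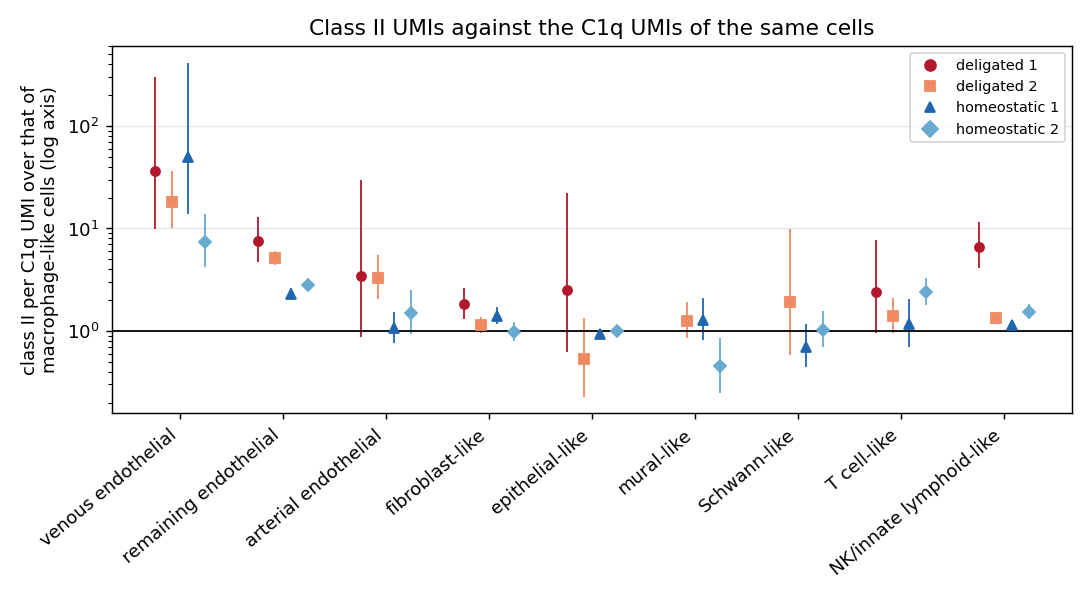
UMIs of 4 class II genes per C1q UMI, relative to that ratio in macrophage-like cells of the same library (log axis), with 95% intervals for counting error; a class with 0 C1q UMIs is not drawn. Venous endothelial cells sit at 7.35 to 50.2 and the remaining endothelial cells at 2.31 to 7.56, while epithelial-like cells of the homeostatic libraries sit at 0.925 and 0.988.

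The mix of members in the remaining endothelial cells differed from that in macrophages. Such a mix depends on how well each gene is captured, so it is compared only between classes. Macrophage-like cells had 3.20, 2.84, 2.76 and 2.77 Cd74 UMIs per H2-Ab1 UMI. The remaining endothelial cells had 0.629, 0.550, 1.34 and 1.35 after cells with at least 2 UMIs of C1q genes or of the leukocyte gene Ptprc were left out, a choice made after seeing the data. Ciita made up 5.14%, 5.09%, 1.75% and 2.78% of member UMIs in those endothelial cells, against 0.159%, 0.120%, 0.219% and 0.214% in macrophage-like cells. H2-DMa made up 7.34%, 7.58%, 5.07% and 5.75%, against 0.865% to 1.14%. In these cells the mix was poorer in Cd74 and richer in H2-DMa and Ciita than the macrophage mix in each library, and more so in the deligated than in the homeostatic libraries for all 3 genes. Neither difference was tested. Other endothelial sets did not share the Cd74 pattern throughout: Cd74 UMIs per H2-Ab1 UMI were 1.31, 1.27, 5.76 and 2.80 in venous cells and 3.0, 1.13, 2.0 and 3.0 in arterial cells. Arterial cells of deligated 1 had 0% H2-DMa among 39 member UMIs. Richness in H2-DMa and Ciita was not particular to endothelium. In NK/innate lymphoid-like cells H2-DMa made up 22.72%, 17.45%, 9.072% and 15.55% of member UMIs. Ciita made up 4.197%, 2.502%, 0.9605% and 1.738% there, so both genes were again higher in the deligated libraries. T cell-like and venous cells also exceeded macrophage-like cells for both genes in each library. Mural-like cells did so for H2-DMa, but not for Ciita throughout.

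Members were also found together in single endothelial cells. Among the remaining cells, thinned to 2000 UMIs and without the leukocyte-gene cells, an H2-DM UMI was seen in 2.67% of the 1835 cells of deligated 2 that had no UMI of the 4 abundant genes. The share was 12.9% of the 451 cells with 1 or 2 such UMIs and 34.8% of the 112 cells with 3 or more. Homeostatic 1 gave 1.61%, 6.82% and 28.6%, and homeostatic 2 gave 1.64%, 5.38% and 27.9%. Deligated 1 gave 0.992% and 7.61%, and 1 of its 6 cells with 3 or more UMIs (95% exact binomial interval 0.421 to 64.1%). In the other 3 libraries the share with H2-DM was highest in the cells with most UMIs of the other members. Ciita did not follow this order throughout. It was seen in 1.96%, 3.99% and 8.04% of the 3 kinds of cells in deligated 2 and in 0.682%, 1.66% and 6.33% in homeostatic 2. In homeostatic 1 the shares were 0.734%, 0.568% and 0%, and in deligated 1 they were 0.840%, 3.26% and 0%; counts of 0 among 63 and 6 cells leave upper 95% limits of 5.69% and 45.9%.

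Endothelial subclusters of at least 50 cells in a library differed in class II RNA. Venous subclusters were highest in each library, at 211 and 993 CPM in the deligated and 1212 and 1008 CPM in the homeostatic libraries. A homeostatic subcluster led by Rgs7, Kirrel3 and Cysltr1 measured 319 and 322 CPM. It held 1 venous marker, Nr2f2, too few for a vessel name. A subcluster of 52 cells with venous markers, led by leukocyte genes, was also left unnamed and counted among the remaining cells. One led by Esm1, a gene of sprouting vessel tips, measured 49.7 and 47.5 CPM. Among deligated cells a subcluster led by Igtp, Gsn and Tap1 measured 94.3 CPM in deligated 1 (127 cells) and 290 CPM in deligated 2 (1199 cells). Its summed level of interferon-induced guanylate-binding proteins, related GTPases and the chemokines Cxcl9 and Cxcl10 was 2942 and 3893 CPM, against 1132 and 1198 CPM in the subcluster led by Socs3 and Fos, where class II measured 44.5 and 151 CPM. In the homeostatic libraries the subcluster with interferon genes of the Ifit type had that summed level at 3958 and 4217 CPM and class II at 187 and 127 CPM, below the Rgs7-led one. Within deligated subclusters both levels were higher in deligated 2 than in deligated 1. In the venous one class II went from 211 to 993 CPM and that summed level from 1042 to 2647 CPM. In the arterial one they went from 14.5 to 120 and from 1055 to 1710 CPM. In the subcluster led by Gm26917 they went from 42.4 to 189 and from 1172 to 2016 CPM. Another sum, of Ifit1, Ifit3, Isg15, Irf7 and Usp18, went the other way in the Igtp-led subcluster, from 1606 to 974 CPM. It moved from 347 to 356 CPM in the Socs3-led and from 367 to 391 CPM in the Gm26917-led one. In the venous and arterial ones it went from 254 to 415 and from 607 to 749 CPM. No test of these relations was run.

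**Figure D4:**
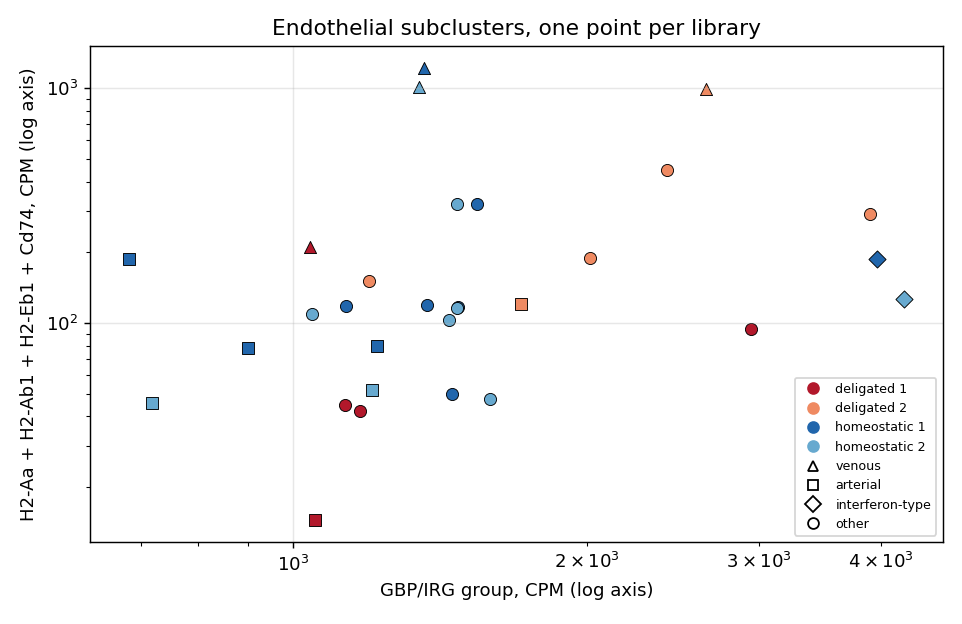
Summed CPM of 4 class II genes against the summed CPM of guanylate-binding proteins, related GTPases, Cxcl9 and Cxcl10 (both log axes) in endothelial subclusters, with 1 point per library and at least 50 cells per point. The homeostatic venous points (1212 and 1008 CPM of class II) sit at 1362 and 1347 CPM on the horizontal axis, and the interferon-type points at 3958 and 4217 CPM.

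In fibroblast-like cells class II RNA was low, and in the homeostatic libraries few cells held most of it. H2-Ab1 measured 10.6 and 17.1 CPM in the deligated libraries and 56.3 and 49.1 CPM in the homeostatic libraries, and Cd74 30.1 and 43.8 against 197 and 87.7 CPM, both without overlap. The edgeR test called 4 of 4 tested members lower in deligated, where 25.8% of 11422 genes were called in either direction and 17.5% lower. H2-Aa fell by 1.69 ± 0.22, H2-Ab1 by 1.84 ± 0.22, H2-Eb1 by 1.71 ± 0.30 and Cd74 by 1.87 ± 0.31 on the log2 scale, with edgeR adjusted p of 0.0021 or below. With the members among the clustering genes 0 were called, beside 2934 of 11407 genes. A single cell held 428 of the 655 UMIs of the 4 abundant members in homeostatic 1, together with 79 C1q UMIs. Another held 233 of the 397 of homeostatic 2, together with 86 C1q UMIs. Cells with leukocyte genes held 48.2%, 48.2%, 84.9% and 82.9% of these UMIs in deligated 1, deligated 2, homeostatic 1 and homeostatic 2. Without them 0 of 4 members were called (edgeR adjusted p 0.41 or above), beside 2859 of 11371 genes. H2-Ab1 then changed by 0.19 ± 0.43 on the log2 scale. The summed level of the 4 genes was then 33.6, 55.3, 59.0 and 40.5 CPM. At that level the class stood at 0.890 to 2.06 times the mural-like level, against 12.9 to 29.4 times for venous cells treated the same way.

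Epithelial-like cells, which the beads had been meant to remove, showed the same direction. They numbered 51 and 149 in the deligated libraries and 3404 and 3678 in the homeostatic libraries, with median depths of 949 to 1244 UMIs. A cluster led by Krt14 held 19 and 7 of the deligated cells and 8 and 2 of the homeostatic ones. The part of this difference in make-up in the changes below was not tested. H2-Eb1 measured 18.7 and 8.55 CPM against 95.3 and 82.7 CPM, and Cd74 26.2 and 42.7 against 179 and 174 CPM. Of the 6 members tested, 4 were called lower in deligated, where 11.0% of 10277 genes were called in either direction and 2.42% lower. H2-Eb1 fell by 3.27 ± 0.40 on the log2 scale (edgeR adjusted p = 0.0030) and H2-Ab1 by 2.39 ± 0.36 (edgeR adjusted p = 0.0063). With no low-count filter 0 members were called, and 0 of all 17443 genes. Without the leukocyte-gene cells, 2 calls were left, beside 706 of 10203 genes. These were H2-Ab1 (-1.92 ± 0.45, edgeR adjusted p = 0.049) and H2-Eb1 (-2.78 ± 0.57, edgeR adjusted p = 0.034). H2-Aa (-2.29 ± 0.81, edgeR adjusted p = 0.14) and Cd74 (-2.20 ± 0.54, edgeR adjusted p = 0.056) then missed the threshold. The deligated sums held 22 and 19 UMIs of the 4 abundant members. The C1q genes moved with class II, at 7.47 and 38.5 CPM in the deligated and 127 and 113 CPM in the homeostatic libraries, and their part in the result was not tested. Ciita had 0 UMIs in both deligated libraries, which allows up to 11.2 and 12.8 CPM, and 0.398 and 0.395 CPM in the homeostatic ones.

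**Figure D5:**
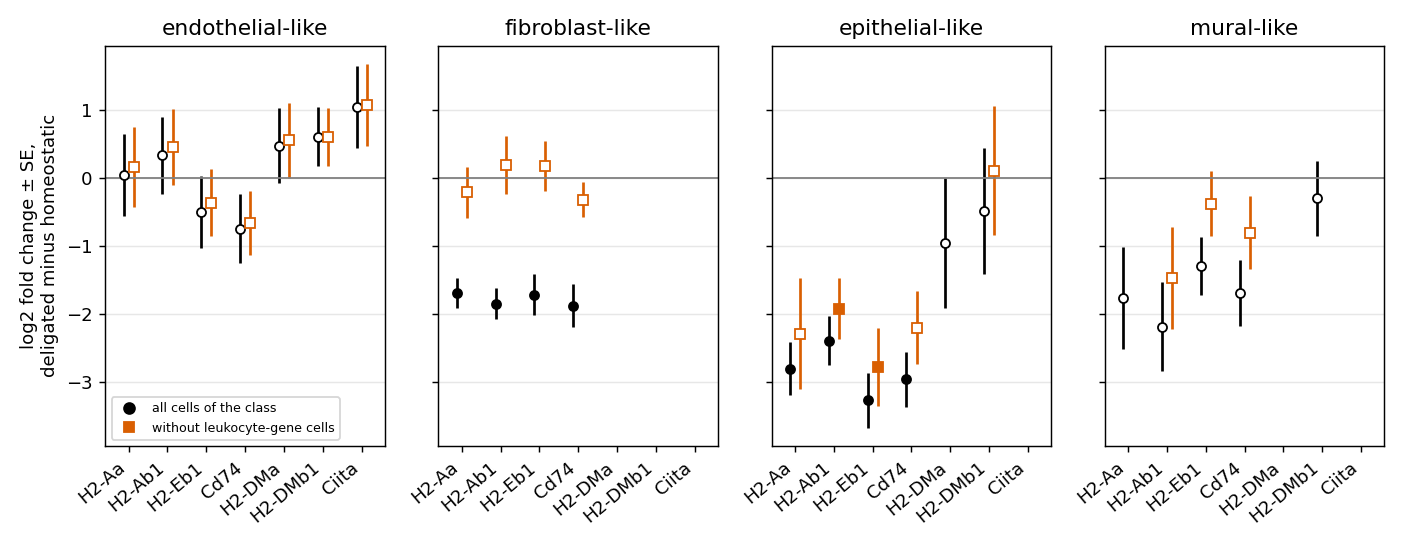
Log2 fold change of each tested member, deligated minus homeostatic, ± SE from edgeR, with all cells of a class (circles) and without cells that carry leukocyte genes (squares); filled symbols have an adjusted p under 0.05. In fibroblast-like cells the 4 changes of -1.69 to -1.87 move to between -0.32 and 0.19.

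In mural-like cells, the reference, the I-A, I-E and Cd74 genes also had lower mean levels in deligated. H2-Ab1 measured 1.71 and 9.51 CPM against 38.2 and 10.7 CPM, and H2-Aa 0.856 and 9.91 against 26.6 and 8.58 CPM, with overlap. Of 5 members tested, edgeR called 0 (7.23% of 9747 genes) and DESeq2 called 0, while 4 had an unadjusted p under 0.05. Without the leukocyte-gene cells H2-Ab1 changed by -1.47 ± 0.75, H2-Eb1 by -0.38 ± 0.48 and Cd74 by -0.80 ± 0.53 on the log2 scale. Their unadjusted edgeR p was then 0.067 or above, where 740 of 9658 genes were called. Without deligated 1, deligated 2 or homeostatic 2, 1, 3 and 1 were called, beside 777 of 8242, 693 of 8099 and 329 of 11020 genes. With no low-count filter, a stricter cell filter or doublets kept 4 were called, beside 1077 of 16398, 831 of 7958 and 958 of 10641 genes. C1q moved the same way, at 0 and 12.3 CPM in the deligated and 39.9 and 40.8 CPM in the homeostatic libraries, and its part was not tested. The change in endothelium was therefore also set against that of the reference within libraries. The log2 change of H2-Ab1 in endothelial-like cells exceeded that in mural-like cells by 2.61 ± 0.46 (edgeR adjusted p = 0.0060), 1 of 7 members called, where 0.771% of 13745 genes were (0.400% higher). Without homeostatic 1 it was 1.38 and not called. It exceeded that in fibroblast-like cells by 1.56 ± 0.36 for H2-Aa (edgeR adjusted p = 0.022) and by 2.01 ± 0.31 for H2-Ab1 (edgeR adjusted p = 0.0017), 2 of 7 members, where 5.30% of 14239 genes were called (1.43% higher). The number of members called varied with the library left out, as did the calls over all genes. Without the leukocyte-gene cells 0 members were called in either comparison, beside 115 of 13657 and 779 of 14143 genes. The H2-Ab1 values became 2.05 ± 0.57 and 0.13 ± 0.37. DESeq2 called 0 members in both, beside 50 of 13745 and 166 of 14239 genes.

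The other class II genes had their highest mean levels in B cell-like cells among the classes compared, except H2-Eb2. H2-Oa and H2-Ob encode the partners that restrain H2-DM. H2-Ob measured 384 and 372 CPM in deligated and 243 and 347 CPM in homeostatic B cell-like cells, against 10.6 to 12.1 CPM in macrophage-like cells and at most 1.54 CPM in endothelial-like cells. H2-Oa measured 290 and 275 against 66.1 and 166 CPM in B cell-like cells, and H2-DMb2 458 and 356 against 243 and 257 CPM. H2-Eb2 was at 0 to 83.6 CPM there and at 17.3 to 60.8 CPM in dendritic-like cells. Reads of H2-DMb1 and H2-DMb2, which are near-identical copies, may be split between them. Of these 4 genes 3, 2, 3 and 1 were tested in macrophage-like, dendritic-like, B cell-like and endothelial-like cells. Both edgeR and DESeq2 called 0 in each class, where 13%, 3.93%, 13.1% and 35.0% of all genes were called by edgeR. At an unadjusted p under 0.05, 1 of the 3 tested in B cell-like cells passed and 0 in the other classes.

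Few of the genes that control class II were called in macrophage-like and endothelial-like cells, and their share was not tested against that of all genes. Of the 16 regulators, edgeR called 1 higher in macrophage-like cells, the transcription factor gene Irf8 (0.73 ± 0.14 on the log2 scale, edgeR adjusted p = 0.0043), at 406 and 446 CPM against 269 and 259 CPM. In endothelial-like cells 1 rose and 2 fell. Over all genes tested 13% were called in macrophage-like cells (3.89% higher) and 35.0% in endothelial-like cells (12.8% higher and 22.1% lower). DESeq2 called 1 and 2 of the regulators. Rfx5, which encodes a subunit of the X-box factor, rose by 0.48 ± 0.15, and Nfyc, which encodes a subunit of the Y-box factor, fell by 0.91 ± 0.10, from 35.3 and 36.7 CPM to 17.5 and 20.4 CPM (edgeR adjusted p = 0.046 and 0.0010). The list's median log2 change was 0.07 in endothelial-like cells, where that of all genes was 0.0002.

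Of the proteases and other processing genes, 4 of 8 tested were called higher in endothelial-like cells and 0 lower. Lgmn, a lysosomal protease gene, rose by 0.67 ± 0.13 on the log2 scale, at 25.8 and 22.6 CPM against 15.1 and 15.7 CPM, and Ctsb by 0.56 ± 0.08 (edgeR adjusted p = 0.0098 and 0.0033). In macrophage-like cells 2 of 9 were called higher and 1 lower. Ctsd rose by 0.79 ± 0.21, and March1, whose product removes class II from the surface, fell by 1.05 ± 0.22 (edgeR adjusted p = 0.023 and 0.0063), from 175 and 164 CPM to 107 and 68.0 CPM. DESeq2 called 0 of the 9 in macrophage-like and 5 of the 8 in endothelial-like cells. Beside those counts, 12.8% of all genes were called higher in endothelial-like cells, and 3.89% higher and 9.15% lower in macrophage-like cells.

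MHC class I genes gave 3 called higher and 1 lower of 15 in macrophage-like cells and 0 higher and 1 lower in endothelial-like cells, where 13% and 35.0% of all genes were called in either direction. DESeq2 called 1 of the 15 in each. Nlrc5, the class I transactivator, was the one that fell in both, by 2.26 ± 0.44 and 0.73 ± 0.19 on the log2 scale (edgeR adjusted p = 0.0044 and 0.029). Tapbp, which encodes a peptide-loading factor of class I, rose by 0.70 ± 0.17 in macrophage-like cells (edgeR adjusted p = 0.018). Of the interferon response genes, 2 of 17 were called higher in macrophage-like cells. Cxcl9 among them stood at 780 CPM in deligated 1 and 2.12 CPM in deligated 2, against 23.2 and 26.9 CPM, so 1 library carried the change. Gbp4 stood at 10.7 and 51.0 CPM against 9.79 and 12.1 CPM, again with 1 high library. In endothelial-like cells 0 of 18 were called higher and Usp18, a negative regulator of interferon signalling, was called lower (-0.37 ± 0.10, edgeR adjusted p = 0.035), while DESeq2 called 2 of the 18. Of the 5 costimulatory genes tested, Cd86 alone was called; it fell in macrophage-like cells by 0.56 ± 0.16 (edgeR adjusted p = 0.032), from 385 and 335 CPM to 235 and 240 CPM. DESeq2 called 0 of the interferon response and costimulatory genes in macrophage-like cells.

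Among the genes whose levels across classes followed the I-A and I-E chains most closely were Ly86, Pkib, Cybb, Spi1, Cd180, Btk, Pld4, Cyp4f18 and Wdfy4. Their Pearson r with the mean of H2-Aa, H2-Ab1 and H2-Eb1, on log2(CPM + 1), ran from 0.90 to 0.97 over 40 points, 10 classes in each of 4 libraries. Points of 1 library share its depth and free RNA, and most of the spread lies between macrophage-like, dendritic-like and B cell-like cells and the rest. Cd74 reached 0.99, H2-DMb1 0.92, Ciita 0.91 and H2-DMa 0.89. Ly86 measured 785 to 1056 CPM in macrophage-like cells but at most 1.44 CPM in endothelial-like cells and 0 in mural-like cells.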

How the data were processed

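The authors deposited, for each library, a matrix of UMI counts per gene and cell barcode, made with Cell Ranger 6.0.1 (deligated) or 7.0.0 (homeostatic), per the file headers; the submitters' processing notes also name Seurat and mm10. Whether reads over introns or on the other strand were counted is not given in the sources used here. Annotated genes overlap H2-Eb1, H2-DMa and Ciita on the opposite strand. From the counts, cells with at least 300 genes and at most 10% mitochondrial UMIs were kept, doublets (expected rate 0.008 per 1000 cells) were removed, and cells were clustered without the 7 members on 3000 variable genes, 30 components and 20 neighbours (scanpy 1.11.5, leidenalg 0.10.2, resolution 1.0). Clusters and endothelial subclusters took a name from at least 3 markers. Counts were summed per class and library (at least 10 cells in each library) and tested with edgeR 4.0.16 (quasi-likelihood, TMM, filterByExpr, Benjamini-Hochberg over all genes of the class, threshold 0.05), the difference between classes with a class by group term and library as block; DESeq2 1.42.0 was an alternative. Of 31053 genes, 31011 (99.9%) matched the annotation. In simulated endothelial-like sums with known changes and 1 fixed spread for all genes, edgeR recovered the larger changes. The class II genes differed widely between the deligated libraries, so the simulation does not show what could be detected for them.

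Levels are CPM of the sums. Shares of cells were taken after thinning to 1000 UMIs, leaving out shallower cells. Intervals (95%, exact Poisson or Clopper-Pearson) and the floor of 3 counts for a 0 cover counting error only. Replicate numbers did not pair the libraries: the correlation of same-numbered deviations was -0.15 to 0.022. The named genes were the 7 members, up to 2 called genes of largest change per list in macrophage-like and endothelial-like cells, the other class II genes, and the 10 genes most correlated with the I-A and I-E chains, of which 1 is not reported here. Members and lists were chosen with earlier results of these data known. H2-Ea, Ifi30 and lymphatic tests (4 to 9 cells a library) were not analysed here. Alternatives covered filters, doublets, resolution, thinning, normalization, intron length, replicate blocks and leaving out each library.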

Additional observations from a re-analysis of the deposited data

Results flagged for a closer look

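The change between the groups differed between classes for 2 genes in a test of that difference. For H2-Ab1 the log2 change in endothelial-like cells exceeded that in mural-like cells by 2.61 and that in fibroblast-like cells by 2.01. For H2-Aa it exceeded that in fibroblast-like cells by 1.56. Cells with leukocyte genes held 84.9% and 82.9% of the UMIs of the 4 abundant members in homeostatic fibroblast-like cells. Without such cells the differences from fibroblast-like cells were 0.13 for H2-Ab1 and 0.23 for H2-Aa on the log2 scale. That of H2-Ab1 from mural-like cells stayed at 2.05 ± 0.57 but missed the threshold (edgeR adjusted p = 0.11).

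Class II RNA was also high in cells that entered no comparison. A cluster left without a name, because haemoglobin genes (Hbb-bs, Hbb-bt, Hba-a1) led it beside 10 of the macrophage markers, held 3 and 12 cells in the deligated and 150 and 160 cells in the homeostatic libraries. Its summed level of H2-Aa, H2-Ab1, H2-Eb1 and Cd74 was 33874 and 41173 CPM in the deligated and 38511 and 38830 CPM in the homeostatic libraries, far above that of mural-like cells. It held 6.77%, 10.6%, 26.7% and 29.5% of all UMIs of the 4 genes. Its C1q level was 8378, 9953, 10347 and 10823 CPM, and whether these barcodes hold more than 1 cell was not tested.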

How the results depend on the processing

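Of 791 recomputed values, which cover the counts, the levels and the genes whose tests the text turns on, 16 changed sign, all of them log2 values of single genes; the cause was not tested. Among uncalled members outside those 791, leaving out leukocyte-gene cells also turned H2-DMb1 in epithelial-like cells (-0.49 to 0.11), H2-Aa in remaining endothelial cells (-0.06 to 0.08), the difference of Ciita from mural-like cells (3.30 to -2.57) and those of H2-DMa (0.85 to -0.21) and H2-DMb1 (0.24 to -1.63) from fibroblast-like cells. Counts of called members and levels cannot change sign. Among them 280 values stayed the same by the rule used, 29 counts rose, 16 counts fell and 21 levels moved. With 2 libraries a group, leaving 1 out assumes that the lone library varies like the others. The calls over all genes also changed with the library left out, so such changes are not particular to the members. The smallest classes had 12 (dendritic-like), 15 (B cell-like) and 35 (macrophage-like) cells in a library, and deligated epithelial-like cells held 22 and 19 UMIs of the 4 abundant members, which limits what could be detected there.

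Leaving out 1 library at a time, called members ranged from 1 to 2 in macrophage-like, 0 to 1 in B cell-like, 0 to 5 in endothelial-like, 0 to 2 in venous, 0 to 4 in arterial, 0 to 6 in remaining endothelial and 0 to 3 in mural-like cells. They ranged from 0 to 1 for the difference from mural-like and from 1 to 4 for that from fibroblast-like cells. In venous cells the 2 calls came without homeostatic 1 and without homeostatic 2; in the other endothelial sets the calls came without deligated 1 or deligated 2. In endothelial-like cells the log2 change ranged from -1.53 to 0.76 (H2-Aa), -1.06 to 1.02 (H2-Ab1), -1.84 to 0.17 (H2-Eb1), -0.85 to 1.13 (H2-DMa), -0.31 to 1.15 (H2-DMb1) and -0.22 to 1.70 (Ciita). That of H2-Aa without homeostatic 2 was -0.07, with the intron-length trend removed -0.10 and under the stricter cell filter -0.17. The difference of Cd74 from mural-like cells ranged from -0.10 to 1.40.

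Replicate numbers did not pair the libraries. With the replicate block the calls were 0 in macrophage-like, 1 in endothelial-like, 3 in venous and 1 in remaining endothelial cells. Over all genes they were 760 of 9257, 4270 of 13177, 1133 of 7081 and 3897 of 12756. H2-Aa changed by -0.27 in endothelial-like cells with that block. Crossed pairing, added because the correlation was -0.15, gave 1 call in endothelial-like and 3 in remaining cells, with H2-Aa at -0.25. Over all genes it gave 4808 of 13177 and 5238 of 12756. The difference between classes already had library as a block.

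In macrophage-like cells DESeq2 and the intron-length correction called 0 members, beside 527 and 559 of 9257 genes. Keeping doublets gave 2 there, beside 1263 of 10224 genes. In venous cells thinned sums and keeping doublets gave 2, beside 794 of 5130 and 727 of 5856 genes. Clustering with the members gave 1 there, beside 1265 of 8749 genes. In fibroblast-like cells clustering with the members, or leaving out leukocyte-gene cells, gave 0, beside 2934 of 11407 and 2859 of 11371 genes. In the latter H2-Ab1 changed by 0.19 and H2-Eb1 by 0.18. There the endothelial-like minus fibroblast-like differences of H2-Eb1 and Cd74 became -0.71 and -0.53. In epithelial-like cells no count filter gave 0, thinned sums 2 and leaving out leukocyte-gene cells 2. Over all genes these gave 0 of 17443, 173 of 3217 and 706 of 10203. In mural-like cells no count filter, the stricter cell filter and keeping doublets each gave 4, beside 1077 of 16398, 831 of 7958 and 958 of 10641 genes. Clustering with the members gave 1 there, beside 770 of 9763 genes. For the differences from mural-like and fibroblast-like cells no count filter gave 2 and 4, beside 280 of 21096 and 1097 of 21546 genes. DESeq2 gave 0 and 0, beside 50 of 13745 and 166 of 14239 genes. Leaving out leukocyte-gene cells gave 0 and 0, beside 115 of 13657 and 779 of 14143 genes.

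As means of 4 libraries, macrophage-like cells moved from 59944 to 50997 CPM and from 99.9% to 98.8% of cells under the stricter filter. Shares of cells were 69.2% (venous), 18.2% (arterial), 29.9% (remaining), 28.3% (fibroblast-like), 16.4% (epithelial-like) and 18.2% (mural-like) unthinned. At 2000 UMIs they were 8.65% (arterial), 18.4% (remaining), 9.38% (fibroblast-like) and 9.73% (mural-like). Mural-like cells measured 192 CPM under the stricter filter and 180 CPM (7.26% of cells) with doublets kept, and fibroblast-like cells 47.1 CPM without leukocyte-gene cells. The median ratio to mural-like cells was 14.0 in venous cells (7.62 over Schwann-like cells, 19.4 without leukocyte-gene cells), 2.79 in fibroblast-like cells (1.01 and 1.21) and 3.39 in epithelial-like cells (0.912 over Schwann-like cells).

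Over all genes, removing the intron-length trend moved the calls in macrophage-like cells from 1207 (29.8% higher) to 559 (63.3% higher) and in endothelial-like cells from 36.7% to 49.8% higher. DESeq2 size factors moved the split of the difference from fibroblast-like cells from 27.0% to 53.1% higher. Not run were clustering with the members for B cell-like cells (7 cells in deligated 2) and an erythroid reference class, since none was named.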

Other observations

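H2-DMa was present in lymphocytes that carried little of the other members. In NK/innate lymphoid-like cells it measured 26.4 and 21.5 CPM in the deligated libraries and 23.4 and 24.0 CPM in the homeostatic libraries, and in T cell-like cells 18.6 and 19.2 against 18.6 and 32.8 CPM. Mural-like cells had 2.14 to 4.76 CPM. Its partner H2-DMb1 stood at 2.35 to 5.09 CPM in NK/innate lymphoid-like cells, below its level in mural-like cells (5.99 to 10.7 CPM) in each library. As the most numerous lymphocytes, NK/innate lymphoid-like cells held 26.0% and 23.1% of H2-DMa UMIs in the deligated libraries and 4.77% and 5.49% in the homeostatic libraries. H2-DMa overlaps annotated genes on the opposite strand, and their part in these values was not tested.

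Lymphatic endothelial cells, 9, 9, 4 and 8 in number, measured 11.1, 602, 56.4 and 26.6 CPM of the 4 abundant members. In deligated 2, 1 of the 9 cells held 47.1% of the 68 UMIs behind that value. In arterial cells of deligated 2, 1 cell with no C1q UMI held 116 of 248 UMIs (46.8%). Schwann-like cells of the homeostatic libraries measured 526 and 749 CPM, and 1 cell in each held 90.6% and 91.2% of those UMIs.

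Other clusters without a name varied in level between libraries, and no test was run on them. One led by the division genes Hist1h1b, Birc5 and Pclaf measured 852, 8159, 14971 and 6240 CPM over 33, 30, 54 and 64 cells, with overlapping groups. Another, led by Hba-a1, Hba-a2 and Hbb-bt, measured 173, 1710, 8458 and 8652 CPM, with C1q at 58.9, 375, 2484 and 2619 CPM. A cluster led by Cd163l1, Trdv4 and Il17a, genes of γδ T cells, measured 8.29, 47.4, 278 and 322 CPM.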
